A study of Homo sapiens with 56 samples.

Results

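PEO1 is an established cell line from a high-grade serous ovarian cancer, and the comparison described here asks what 4-hydroxytamoxifen (4OHT) alone did to its transcripts within 3 h. The 8 arrays were chosen by their titles, 4 titled as 4OHT without estradiol and 4 titled as vehicle, out of 56 arrays in the series. All PEO1 cells were first deprived of hormone for 3 days in medium without phenol red and with charcoal-stripped serum. They then received 1 µM 4OHT in one group, or ethanol in the vehicle group. The groups used for context were 1 µM 4OHT with 1 nM estradiol (E2), 1 µM fulvestrant (ICI in the titles), 1 µM ICI with 1 nM E2, 1 nM E2, and cells at 0 h, also with 4 arrays each. PEO4, another high-grade serous line, received 1 µM 4OHT (Tam in its titles) or vehicle in the same way, 4 arrays each. All results are for single lines in culture, and the labels do not say whether the replicates of a group, lettered A to D, came from separate cultures. The p-values therefore measure the spread between arrays of a group. That spread was pooled over all groups of the 28 PEO1 arrays, or of all 56 arrays for PEO4 and the comparison of lines.

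4OHT is the active metabolite of tamoxifen. It occupies the ligand pocket of the estrogen receptor ESR1 and moves the helix that coactivators dock on, so that the receptor stays on DNA but drives its usual targets poorly in breast cells and partly in some other tissues. ICI also fills the pocket and in addition marks the receptor for degradation. Immediate early genes are a different class: they encode transcription factors and signalling inhibitors whose mRNA appears within the hour after kinase, calcium or stress signals, without the need for new protein.

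Expression was measured with Affymetrix arrays, and each value is a log2 RMA value. Medians of PEO1 arrays lay between 7.409 and 7.49. Pairs of 4OHT arrays correlated at 0.9968 to 0.9987 and pairs of vehicle arrays at 0.9984 to 0.9987 across 11963 genes, with 1 probe set each. The first principal component of these 8 arrays held 33.7% of the variance and separated the groups, and 4OHT array B lay farthest out on it. The 3 prime minus 5 prime difference of the ACTB control probe sets, a sign of RNA integrity, was -0.13 to 0.07 on 4OHT arrays and -0.12 to -0.11 on vehicle arrays. All 6 epithelial defining markers had group levels between 11.48 and 13.81, the 7 serous markers lay between 3.99 and 11.44, and the 5 immune and 4 endothelial markers measured lay at or under 6.6 with 0 called. Among the serous markers ESR1 was called, lower with 4OHT. Averaged over a class, the marker level on 4OHT arrays and on vehicle arrays was 9.42 to 9.46 and 9.46 to 9.55 for serous markers, 12.71 to 12.82 and 12.75 to 12.81 for epithelial markers, 5.51 to 5.63 and 5.51 to 5.62 for stromal markers.

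Of 11963 genes tested with limma, 821 (6.86%) passed a Benjamini-Hochberg adjusted p of 0.05 and are named called here. Among them 232 (1.94%) were higher with 4OHT and 589 (4.92%) were lower, and 2629 genes had an unadjusted p under 0.05. The risen genes held the large changes: 8 rose at least 2-fold and 24 at least 1.5-fold, whereas 0 fell at least 2-fold and 1 fell at least 1.5-fold. The median log2 difference was 0.29 over the genes called higher and -0.20 over the genes called lower, beside -0.03 over all genes. The ratio of rises to falls depended on how the arrays were scaled. With quantile normalization of the deposited values 318 genes were higher and 282 lower, and with every array set to one median 281 were higher and 314 lower, against 232 and 589 on the values as deposited. Individual arrays also mattered: 380 genes were called without vehicle array C, 452 without vehicle array A, 471 without 4OHT array B and 518 without 4OHT array C. With only the 8 arrays in the fit, 256 genes were called, 125 higher and 131 lower.

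The leading risen genes were a heat shock chaperone, immediate early transcription factors, an anti-apoptotic BCL2 relative, chemokines and an EGF receptor ligand. Differences below are 4OHT minus vehicle on the log2 scale, with the standard error of the fit. Array values are log2 values in the order A to D. HSPA6, a stress-inducible HSP70 chaperone, stood at 8.81, 9.33, 8.40 and 8.14 on 4OHT arrays, against 7.07, 6.95, 7.30 and 6.84 on vehicle arrays. Its difference was 1.63 ± 0.18 (adjusted p = 2.31e-06), a 3.09-fold rise. Its second probe set rose by 0.99 as well, and since the gene has a near-identical copy in the genome, HSPA7, hybridization from that copy cannot be told apart. FOSB, an AP-1 subunit, had 7.84, 8.44, 7.34 and 7.39 on 4OHT arrays, against 6.08, 6.12, 6.17 and 6.16 on vehicle arrays, 1.62 ± 0.21 (adjusted p = 1.94e-05), a 3.08-fold rise. BCL2A1, which restrains mitochondrial apoptosis, had 7.80, 8.22, 7.64 and 7.59 on 4OHT arrays, against 6.47, 6.28, 6.39 and 6.21 on vehicle arrays, 1.47 ± 0.14 (adjusted p = 2.65e-07). For each of these genes the lowest 4OHT array lay above the highest vehicle array, and 4OHT array B was the highest. Genes were called on these same arrays. The groups did not overlap for 198 of the 232 genes called higher and 516 of the 589 called lower.

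NR4A3, an orphan nuclear receptor induced by cAMP and calcium, stood at 6.85, 7.96, 7.27 and 6.84 on 4OHT arrays, against 5.98, 6.12, 6.13 and 6.04 on vehicle arrays, 1.17 ± 0.15 (adjusted p = 1.53e-05). CCL20, a chemokine for CCR6-bearing lymphocytes and dendritic cells, had 6.44, 7.06, 7.62 and 6.86 on 4OHT arrays, against 5.73, 5.90, 5.85 and 5.93 on vehicle arrays, 1.14 ± 0.15 (adjusted p = 1.54e-05), and here array C was the highest. EREG, the EGF receptor ligand epiregulin, had 6.92, 7.12, 7.24 and 6.76 on 4OHT arrays, against 6.07, 5.75, 6.02 and 5.66 on vehicle arrays, 1.14 ± 0.10 (adjusted p = 8.75e-08). Neither gene's groups overlapped. EGR3 and EGR1, zinc finger factors of the early growth response family, rose by 1.08 ± 0.13 (adjusted p = 5.85e-06) and by 0.95 ± 0.18 (adjusted p = 0.00127). EGR1 had 8.49, 9.07, 8.18 and 8.10 on 4OHT arrays, against 7.60, 7.40, 7.61 and 7.44 on vehicle arrays, and its second probe set had a difference of 0.45 that was not called over all probe sets (adjusted p = 0.0712). GEM, a small GTPase that curbs calcium channels, stood at 11.14, 11.13, 10.91 and 10.88 on 4OHT arrays, against 9.93, 10.02, 10.04 and 9.79 on vehicle arrays, 1.07 ± 0.08 (adjusted p = 6.92e-09).

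**Figure D1:**
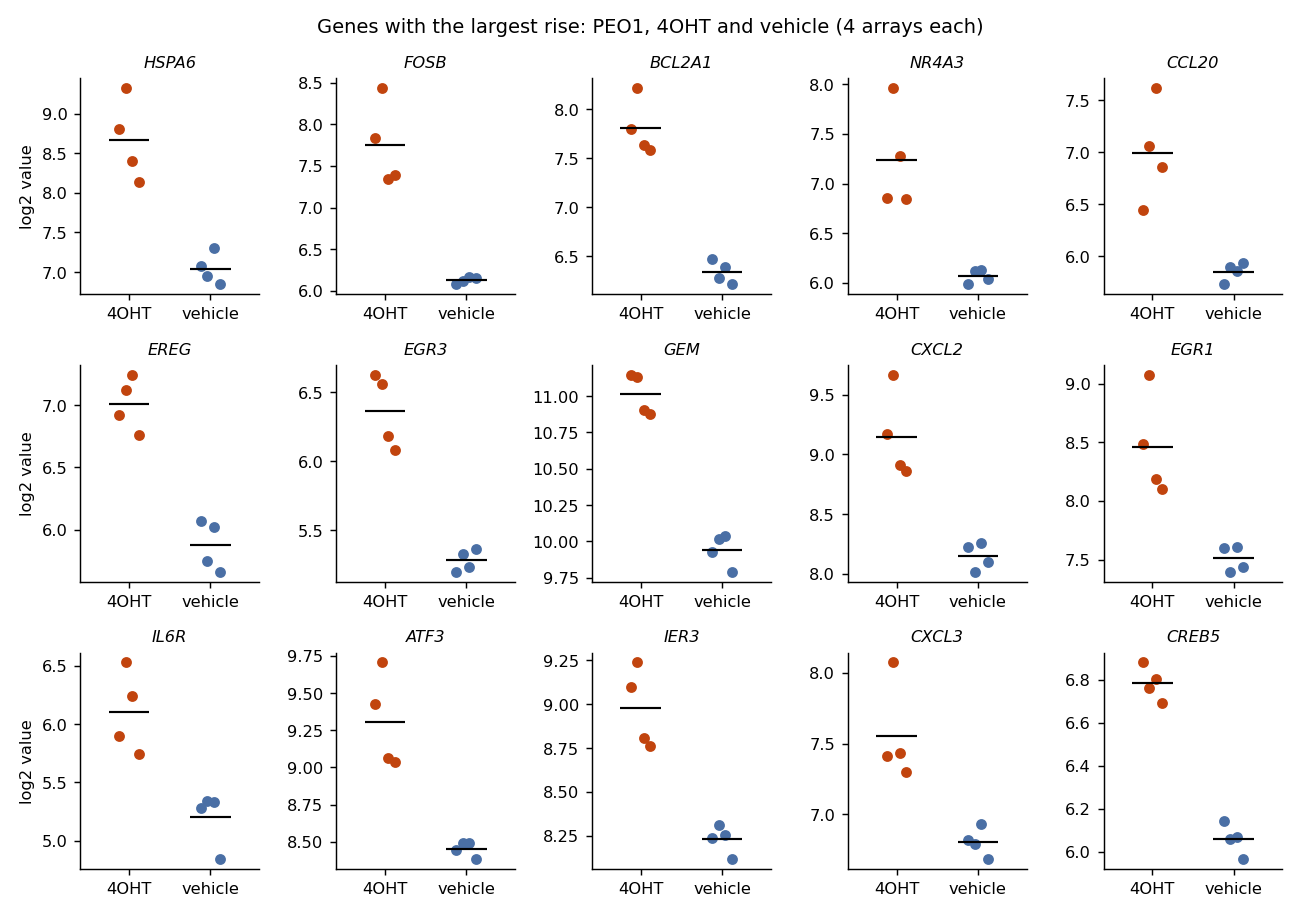
Log2 values of the 15 genes with the largest rise among the called genes, 4 arrays per group (points, 4OHT left of vehicle) with the group mean as a bar. Each panel has its own axis, and the groups do not overlap in any of the 15 panels. These genes were picked by their change on the same arrays, and the groups did not overlap for 198 of the 232 genes called higher.

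The stretch upstream of the start site was read for the leading risen genes, since several are textbook targets of short, well known motifs. RefSeq promoters of build GRCh38.p14 were matched for 12 of the 15 genes. Of those with a motif, 6 are shown as the 250 bases before the start on the gene's strand, with matches in capitals. The motifs were the CRE half-site TGACGT, the AP-1 site TGACTCA, the heat shock element GAANNTTC, the CArG box and the kB site, each on both strands. The half-site was chosen after the sequences had been read. HSPA6 (chr1:161524290-161524539, plus strand) held 2 heat shock elements, which begin 180 and 69 bases before the start, and 2 AP-1 sites. FOSB (chr19:45467746-45467995, plus strand) held 1 CRE half-site, NR4A3 (chr9:99821635-99821884, plus strand) held 3, and EGR1 (chr5:138465229-138465478, plus strand) held 2 CArG boxes between 2 CRE half-sites. CCL20 (chr2:227813592-227813841, plus strand) and CXCL2 (chr4:74099196-74099445, minus strand) each held a kB site that begins 78 or 79 bases before the start, and CXCL2 also a CRE half-site. Of the matched promoters not shown, CXCL3 held a kB site and IL6R an AP-1 site that lies after the start. BCL2A1, EREG, ATF3 and CREB5 held none of these motifs from 250 bases before to 50 after the start.
HSPA6: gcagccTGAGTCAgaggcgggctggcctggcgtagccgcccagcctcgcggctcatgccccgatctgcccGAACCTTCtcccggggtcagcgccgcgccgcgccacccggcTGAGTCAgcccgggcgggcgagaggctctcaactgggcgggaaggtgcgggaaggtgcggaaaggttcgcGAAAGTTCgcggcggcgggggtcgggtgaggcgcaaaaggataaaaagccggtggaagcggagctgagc
FOSB: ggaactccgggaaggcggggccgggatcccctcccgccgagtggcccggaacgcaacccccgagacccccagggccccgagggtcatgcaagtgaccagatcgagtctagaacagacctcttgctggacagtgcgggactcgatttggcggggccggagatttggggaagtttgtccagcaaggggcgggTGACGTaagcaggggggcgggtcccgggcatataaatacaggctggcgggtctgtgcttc
NR4A3: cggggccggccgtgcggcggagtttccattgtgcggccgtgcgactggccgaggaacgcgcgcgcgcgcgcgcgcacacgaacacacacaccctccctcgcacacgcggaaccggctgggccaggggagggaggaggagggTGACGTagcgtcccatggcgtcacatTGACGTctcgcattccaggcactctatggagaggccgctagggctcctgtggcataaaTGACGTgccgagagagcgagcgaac
EGR1: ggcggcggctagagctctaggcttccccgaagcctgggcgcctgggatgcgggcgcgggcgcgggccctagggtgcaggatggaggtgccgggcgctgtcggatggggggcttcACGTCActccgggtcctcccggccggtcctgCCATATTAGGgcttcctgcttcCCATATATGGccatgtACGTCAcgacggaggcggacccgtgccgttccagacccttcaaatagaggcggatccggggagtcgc
CCL20: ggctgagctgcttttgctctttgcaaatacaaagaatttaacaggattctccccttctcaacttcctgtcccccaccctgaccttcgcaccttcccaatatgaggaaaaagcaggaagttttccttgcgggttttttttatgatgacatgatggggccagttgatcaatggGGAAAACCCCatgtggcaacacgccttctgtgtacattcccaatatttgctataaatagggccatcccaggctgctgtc
CXCL2: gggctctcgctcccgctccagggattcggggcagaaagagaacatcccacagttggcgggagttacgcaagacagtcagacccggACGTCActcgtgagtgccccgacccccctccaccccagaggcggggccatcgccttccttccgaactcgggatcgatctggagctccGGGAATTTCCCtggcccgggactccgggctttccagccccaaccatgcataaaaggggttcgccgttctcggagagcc

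Over whole promoters, 250 bases before to 50 after the start, a kB site was present in 15.5% of the 181 promoters of genes called higher, in 6.29% of the 477 of genes called lower, in 6.57% of the 9562 of genes tested and in 5.72% of all 27305. A CRE half-site was present in 21.5%, 10.3%, 10.9% and 8.32% of the same sets. The AP-1 site was in 6.08%, 2.31%, 3.56% and 4.92%, the heat shock element in 6.08%, 7.13%, 5.20% and 6.87%, and the CArG box in 1.10%, 1.68%, 1.28% and 1.29%. These shares are descriptions and were not tested. A match of letters is not a bound site.

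Of 28 measured immediate early genes, mostly transcription factors, 14 were called higher, with 1 lower (MYC) and a list median of 0.22. By quantile normalization it was 15 higher and 0 lower. For 4OHT minus vehicle, this and every list count below stands beside 1.94% of all genes called higher and 4.92% called lower. Beside the factors above, ATF3, a stress-induced bZIP repressor, stood at 9.43, 9.71, 9.06 and 9.04 on 4OHT arrays, against 8.45, 8.49, 8.49 and 8.38 on vehicle arrays, 0.85 ± 0.11 (adjusted p = 1.67e-05). MAFF, a small MAF protein that pairs with bZIP factors, was 9.37, 9.59, 9.30 and 9.32 on 4OHT arrays, against 8.90, 8.79, 8.85 and 8.65 on vehicle arrays, 0.60 ± 0.07 (adjusted p = 2.15e-06). JUND, an AP-1 subunit, had 11.85, 11.92, 11.78 and 11.88 on 4OHT arrays, against 11.47, 11.48, 11.54 and 11.43 on vehicle arrays, 0.38 ± 0.04 (adjusted p = 3.89e-06). IER3, an early response gene that modulates ERK and NF-kB signalling, rose by 0.75 ± 0.09 (adjusted p = 1.22e-05). Of the 14 rises, 4OHT array B held the highest value in 11 and array A in 3. The list kept 12 to 14 rises when each array was left out in turn. Without array B the count was 12.

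In the list of feedback inhibitors and targets of MAP kinase signalling 6 of 17 were called higher and 0 lower. IER3 is counted both here and among the immediate early genes. DUSP5, a nuclear phosphatase that inactivates ERK, was 10.34, 10.56, 10.33 and 10.22 on 4OHT arrays, against 9.70, 9.60, 9.75 and 9.69 on vehicle arrays, 0.68 ± 0.06 (adjusted p = 8.75e-08). DUSP4, a related phosphatase, rose by 0.54 ± 0.07 (adjusted p = 1.22e-05), PHLDA1, an early target of ERK, by 0.52 ± 0.08 (adjusted p = 0.000164), and DUSP1, which acts on p38 and JNK as well, by 0.38 ± 0.07 (adjusted p = 0.00193). The DUSP10 rise of 0.22 lost its call without any one of 6 of the 8 arrays (adjusted p = 0.0503 to 0.14). Array B was the highest 4OHT array for all 6 genes. Among EGF receptor ligands and receptors 2 of 11 rose, both ligands: EREG, and HBEGF at 10.86, 10.90, 10.96 and 10.69 on 4OHT arrays, against 10.21, 10.20, 10.18 and 9.99 on vehicle arrays, 0.71 ± 0.06 (adjusted p = 3.15e-08). ERBB3, a receptor of the family, was the 1 member called lower at -0.17 (adjusted p = 0.0373) and lost the call without vehicle array A, C or D or 4OHT array A or B (adjusted p = 0.0725 to 0.141), with quantile normalization (adjusted p = 0.122) and with a common median (adjusted p = 0.112).

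Genes known to answer cAMP and calcium were called higher in 9 of 17 measured, 0 lower, with a list median of 0.33. PDE4B, which breaks down cAMP, stood at 7.49, 7.58, 7.27 and 7.41 on 4OHT arrays, against 6.72, 6.93, 6.75 and 6.84 on vehicle arrays, 0.63 ± 0.08 (adjusted p = 1.43e-05). CREM, whose short ICER form represses CRE-driven genes, had 0.43 ± 0.07 (adjusted p = 0.000203), and NR4A2, a sister of NR4A3, 7.51, 8.23, 7.38 and 7.21 on 4OHT arrays, against 6.95, 6.95, 6.92 and 6.74 on vehicle arrays, 0.69 ± 0.12 (adjusted p = 0.000863). Outside the list, CREB5, a CRE-binding factor, was 6.88, 6.76, 6.80 and 6.69 on 4OHT arrays, against 6.14, 6.06, 6.07 and 5.97 on vehicle arrays, 0.73 ± 0.09 (adjusted p = 1.17e-05). Several members are shared with the immediate early list, so the lists are not independent counts.

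Among 23 chemokines and cytokines 7 rose and 0 fell, and among 18 NF-kB subunits, inhibitors and targets 9 rose and 0 fell. The neutrophil chemokine CXCL2 had 9.17, 9.66, 8.91 and 8.86 on 4OHT arrays, against 8.22, 8.02, 8.26 and 8.10 on vehicle arrays, 0.999 ± 0.11 (adjusted p = 2.94e-06). CXCL1, its neighbour on chromosome 4, stood at 11.58, 11.55, 11.60 and 11.59 on 4OHT arrays, against 11.13, 11.08, 11.17 and 11.06 on vehicle arrays, 0.47 ± 0.06 (adjusted p = 1.42e-05). CXCL3 rose by 0.75 ± 0.11 (adjusted p = 7.49e-05), CXCL8 (interleukin 8) by 0.56 ± 0.09 (adjusted p = 0.000229), and IL6, the acute-phase cytokine, by 0.43 ± 0.09 (adjusted p = 0.00238). Outside both lists, IL6R, the receptor for IL6, stood at 5.90, 6.53, 6.24 and 5.74 on 4OHT arrays, against 5.28, 5.34, 5.33 and 4.84 on vehicle arrays, 0.90 ± 0.15 (adjusted p = 0.000242), but its second probe set was low, with means of 3.40 with 4OHT and 3.28 with vehicle, and was not called. In the NF-kB list the changes were smaller: TNFAIP2 rose by 0.35 ± 0.05 (adjusted p = 4.50e-05), TNIP1, a partner of the inhibitor A20, by 0.31 ± 0.04 (adjusted p = 5.68e-05), the adhesion protein ICAM1 by 0.42 ± 0.07 (adjusted p = 0.000232) and the p50 precursor NFKB1 by 0.33 ± 0.05 (adjusted p = 0.000287). TNFAIP3, which is A20, had 11.11, 11.27, 10.92 and 11.09 on 4OHT arrays, against 10.79, 10.76, 10.84 and 10.77 on vehicle arrays, 0.31 ± 0.06 (adjusted p = 0.00115). Without 1 array the NF-kB count ranged from 6 to 9 and the chemokine count from 7 to 8.

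Among stress genes 3 of 21 in the heat shock list, 3 of 19 NRF2 targets and 4 of 27 in the unfolded protein list were called higher, beside 1.94% of all genes. These are not independent counts. DNAJB9 is counted in both the heat shock and unfolded protein lists, and SLC7A11 in both the NRF2 and unfolded protein lists. HSPA6 was 1 of 3 heat shock genes called higher among 21 measured, beside HSPB8, a small chaperone, at 0.37 ± 0.08 (adjusted p = 0.00342), and DNAJB9, a chaperone of the endoplasmic reticulum, at 0.23 ± 0.05 (adjusted p = 0.00582). DNAJB1, an HSP70 partner, and HSPD1, the mitochondrial HSP60, had differences of -0.09 and -0.05, which were not called. Of 19 targets of the oxidative stress factor NRF2, 3 rose and 0 fell: HMOX1, which degrades heme, stood at 9.12, 9.37, 9.05 and 8.97 on 4OHT arrays, against 8.48, 8.43, 8.50 and 8.34 on vehicle arrays, 0.69 ± 0.09 (adjusted p = 1.22e-05), and TXNRD1, a thioredoxin reductase, rose by 0.18 ± 0.04 (adjusted p = 0.00274). SLC7A11, the cystine carrier, differed by 0.27 and lost its call without vehicle array C or D or 4OHT array C or D (adjusted p = 0.0556 to 0.0918). In the unfolded protein and integrated stress response, 4 of 27 rose and 1 fell. PPP1R15A, which reverses the translation block, rose by 0.38 ± 0.09 (adjusted p = 0.00805), and ASNS, an amino acid response gene, by 0.19 ± 0.04 (adjusted p = 0.00524). DDIT4, an mTOR inhibitor, was the member that fell, at 10.58, 10.28, 10.37 and 10.45 on 4OHT arrays, against 10.87, 10.71, 10.97 and 10.74 on vehicle arrays, -0.41 ± 0.08 (adjusted p = 0.00142).

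Of 21 cholesterol synthesis genes 0 were called higher and 1 lower (EBP, the sterol isomerase, -0.18, adjusted p = 0.0499). That direction turned with the scaling, since quantile normalization gave 3 higher and 0 lower. EBP also lost the call without any one of 6 of the 8 arrays (adjusted p = 0.0597 to 0.165) and with quantile normalization, a common median, the replicate block, array weights or all probe sets (adjusted p = 0.064 to 0.146). NPC1, which exports cholesterol from lysosomes, rose by 0.20 ± 0.04 (adjusted p = 0.000972), and ABCA1, which exports it from the cell, fell to 6.70, 6.97, 7.13 and 7.02 on 4OHT arrays, against 7.31, 7.36, 7.44 and 7.36 on vehicle arrays, -0.42 ± 0.08 (adjusted p = 0.00238). SQSTM1, an autophagy receptor, rose by 0.26 ± 0.04 (adjusted p = 0.000242).

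BCL2A1 and the BH3-only gene PMAIP1, which oppose each other in apoptosis, were the 2 rises among 15 BCL2 family genes, with PMAIP1 at 0.24 ± 0.05 (adjusted p = 0.00142). BAX, a pore-forming member, fell by 0.21 but lost its call without vehicle array C or D or 4OHT array B (adjusted p = 0.0629 to 0.114). Among 22 CDK inhibitors and p53 targets 3 rose and 4 fell. BTG1, an antiproliferative factor, rose by 0.30 ± 0.04 (adjusted p = 3.72e-05), and TNFRSF10B, the TRAIL receptor DR5, was 10.26, 10.24, 10.36 and 10.29 on 4OHT arrays, against 9.92, 9.86, 9.90 and 9.96 on vehicle arrays, 0.38 ± 0.05 (adjusted p = 6.01e-05). CDKN1A, the cell cycle inhibitor p21, differed by 0.29 and lost the call without vehicle array D (adjusted p = 0.0529) or 4OHT array B (adjusted p = 0.0768). The 4 falls became 0 without 4OHT array B, 1 without vehicle array A or C, and 2 without vehicle array B or 4OHT array C. Of 16 Kruppel-like factors 5 rose and 0 fell, or 3 rose without vehicle array A. KLF6, an injury-response factor, had 11.30, 11.12, 11.01 and 11.20 on 4OHT arrays, against 10.77, 10.78, 10.88 and 10.76 on vehicle arrays, 0.36 ± 0.05 (adjusted p = 0.000124). KLF9 rose by 0.34 ± 0.08 (adjusted p = 0.00863) and KLF4, an epithelial differentiation factor, by 0.26 ± 0.06 (adjusted p = 0.00875). KLF6 and KLF4 are counted among the immediate early genes as well.

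**Figure D2:**
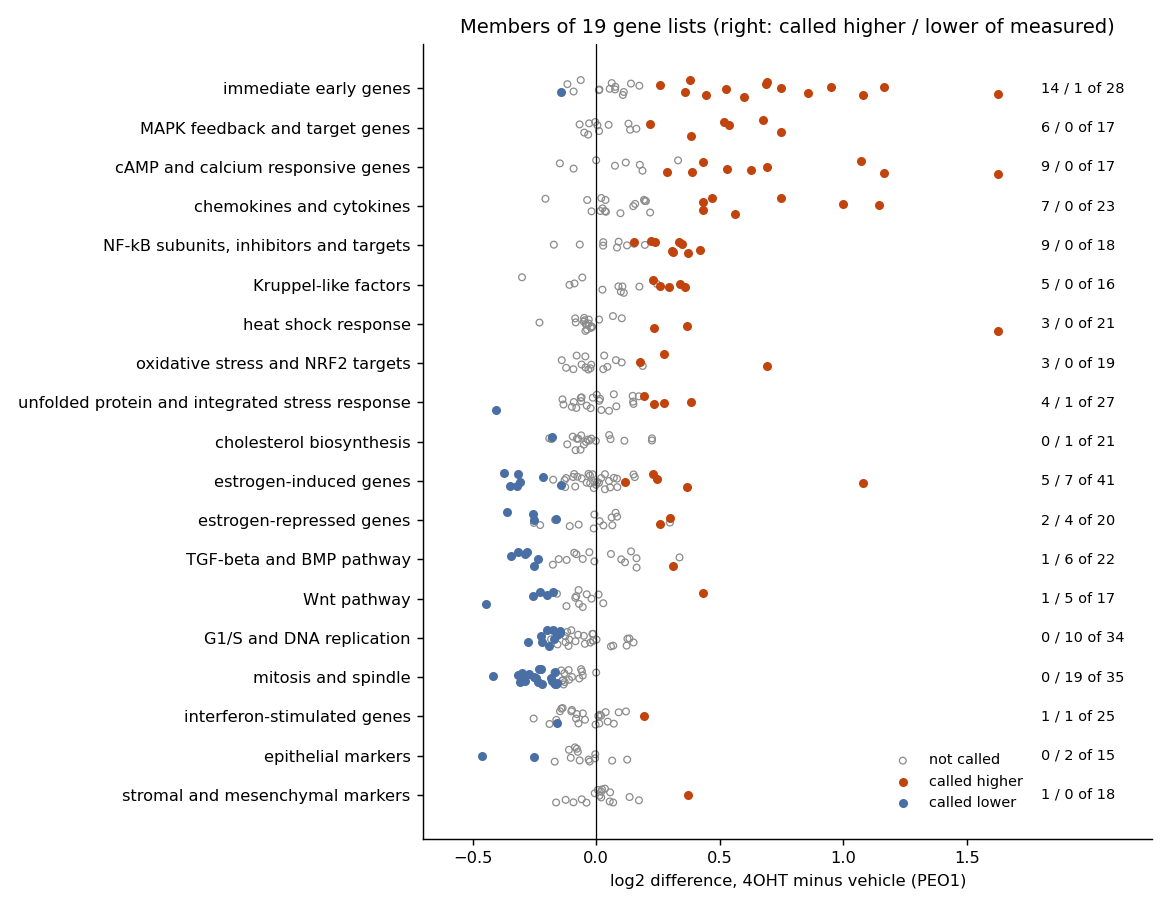
Log2 difference, 4OHT minus vehicle, of each measured member of 19 gene lists. Filled points passed adjusted p of 0.05 and open points did not, and the counts at the right give members called higher and lower of those measured. The called members of the first 8 lists lie right of 0 apart from MYC, and those of the mitosis and G1/S lists lie left of it.

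The called falls were smaller than the leading rises. Among the probe sets that stand for the genes, VAV3 had the largest called fall, at 6.79, 6.63, 7.06 and 6.71 on 4OHT arrays, against 7.46, 7.38, 7.51 and 7.37 on vehicle arrays, -0.63 ± 0.09 (adjusted p = 2.48e-05). PRR15L had 7.75, 7.73, 7.75 and 7.73 on 4OHT arrays, against 8.33, 8.27, 8.26 and 8.31 on vehicle arrays, -0.55 ± 0.05 (adjusted p = 8.75e-08). TMEM100, a gene induced by BMP9 signalling, had 4.24, 4.03, 4.46 and 4.19 on 4OHT arrays, against 4.72, 4.80, 5.01 and 4.50 on vehicle arrays, -0.53 ± 0.12 (adjusted p = 0.00863), and lost the call without vehicle array C (adjusted p = 0.0511). OVOL2, a repressor that holds cells in the epithelial state, stood at 10.05, 9.92, 9.81 and 9.97 on 4OHT arrays, against 10.38, 10.39, 10.45 and 10.37 on vehicle arrays, -0.46 ± 0.05 (adjusted p = 5.19e-06). For none of these did the groups overlap, as for 516 of the 589 genes called lower. FZD2, a Wnt receptor, had 8.32, 8.21, 8.07 and 8.28 on 4OHT arrays, against 8.66, 8.64, 8.77 and 8.58 on vehicle arrays, -0.45 ± 0.06 (adjusted p = 3.00e-05). TXNIP, an inhibitor of glucose uptake that responds to glucose, was 8.29, 8.27, 8.38 and 8.33 on 4OHT arrays, against 8.73, 8.74, 8.71 and 8.71 on vehicle arrays, -0.41 ± 0.05 (adjusted p = 1.23e-05), and both of its other probe sets were called lower too. NR3C2, the mineralocorticoid receptor, fell by 0.41 (adjusted p = 1.23e-05), and GASK1B, FUT9 and NDC80 by 0.44, 0.42 and 0.42.

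**Figure D3:**
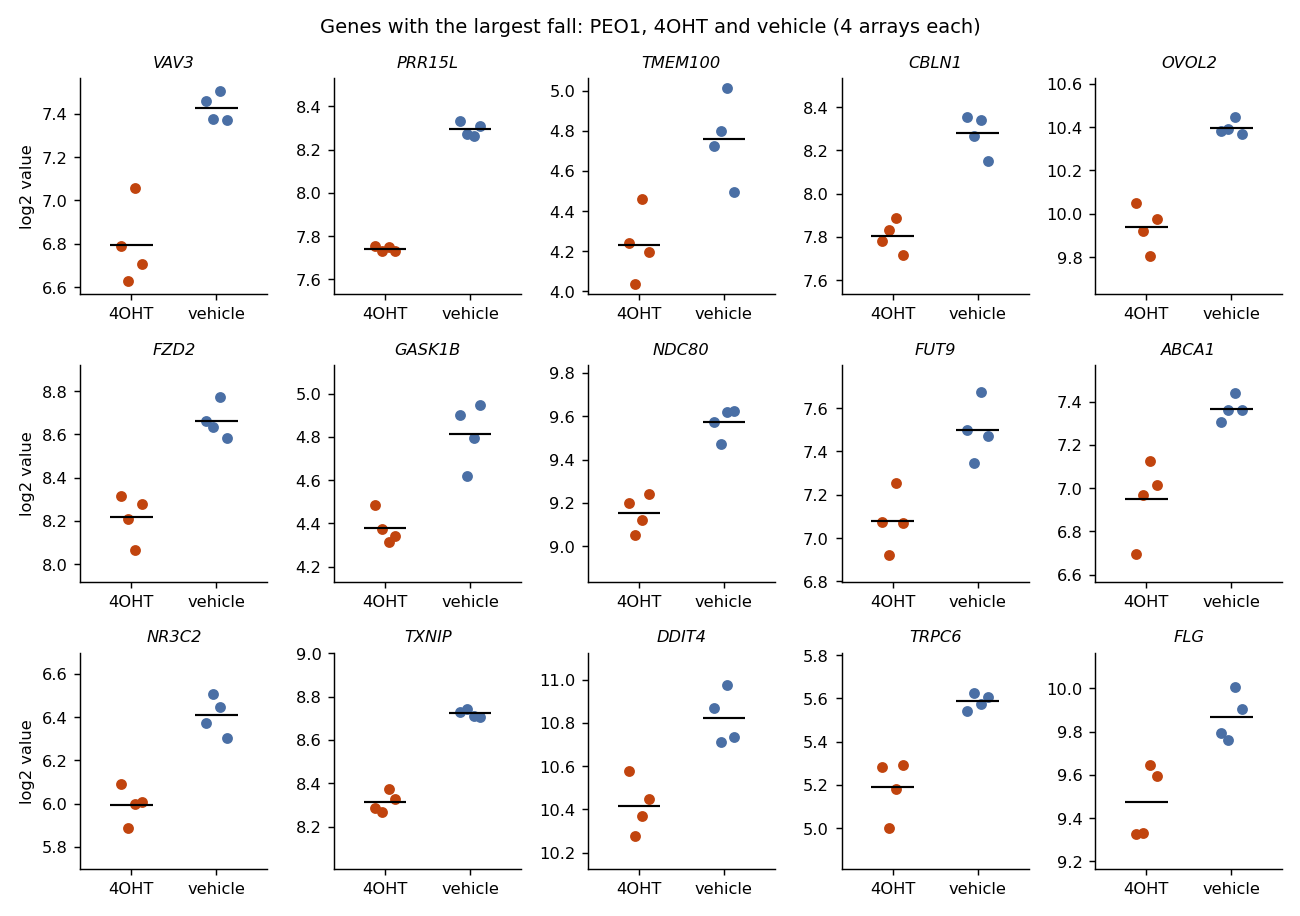
Log2 values of the 15 genes with the largest fall among the called genes, 4 arrays per group (points, 4OHT left of vehicle) with the group mean as a bar. Each panel has its own axis, and the 4OHT arrays lie below the vehicle arrays in every panel. These genes were picked by their change on the same arrays, and the groups did not overlap for 516 of the 589 genes called lower.

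Of 35 mitosis and spindle genes 19 were called lower and 0 higher, with a list median of -0.17 beside -0.03 over all genes. AURKA, the mitotic kinase, had 10.97, 10.87, 11.05 and 11.03 on 4OHT arrays, against 11.27, 11.19, 11.33 and 11.29 on vehicle arrays, -0.29 ± 0.04 (adjusted p = 0.000108). DLGAP5, a spindle protein, had 10.21, 10.10, 10.20 and 10.09 on 4OHT arrays, against 10.41, 10.43, 10.55 and 10.49 on vehicle arrays, -0.32 ± 0.04 (adjusted p = 3.49e-05), and NDC80, a kinetochore subunit, 9.20, 9.05, 9.12 and 9.24 on 4OHT arrays, against 9.57, 9.47, 9.62 and 9.62 on vehicle arrays, -0.42 ± 0.07 (adjusted p = 0.000154). ASPM, CCNA2 (cyclin A) and BUB1B fell by 0.27, 0.30 and 0.30. The count was 14 with quantile normalization or a common median, 6 with only the 8 arrays in the fit, and 13 to 19 when single arrays were left out. Of 34 G1/S and DNA replication genes 10 fell and 0 rose. GINS2, a helicase subunit, fell by 0.22 (adjusted p = 0.00127), ORC1, of the origin complex, by 0.28 and CDK4 by 0.20. That count fell to 5 with quantile normalization, 5 without vehicle array C and 6 without vehicle array A or 4OHT array B.

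In the mitochondrial respiratory chain 8 of 70 genes were called lower and 0 higher, but quantile normalization left 1. The count was also 1 without vehicle array A or C or 4OHT array C, 3 without 4OHT array B, 13 without 4OHT array D and 16 without 4OHT array A. UQCRQ, a complex III subunit, fell by 0.20 (adjusted p = 0.00137). Among 57 cytosolic ribosomal proteins 3 (5.3%) were lower and among 33 proteasome subunits 1 (3%), shares near or under the 4.92% over all genes. Among 16 ribosome biogenesis genes and 14 tRNA synthetases 0 were called in either direction. Of 235 ZNF genes 12 were lower and 2 higher, a share of lower calls (5.1%) near the 4.92% over all genes, and the 12 became 7 without vehicle array A and 6 without vehicle array C. The 3 ribosomal calls became 0 without vehicle array C or 4OHT array B or C and 1 without vehicle array A. The interferon list had 1 call in each direction among 25.

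The reported targets of the estrogen receptor did not move one way. In the list of estrogen-induced genes 5 of 41 were higher and 7 lower, and in the list of estrogen-repressed genes 2 of 20 were higher and 4 lower. Quantile normalization turned both balances, with 5 higher and 4 lower in the induced list and 3 higher and 2 lower in the repressed list. A common median gave 4 higher and 5 lower in the induced list and 3 in each direction in the repressed list. The 5 became 3 without any one array other than 4OHT array D, where it was 4, the 7 became 4 without vehicle array A or C or 4OHT array C or D, and the 4 became 2 without vehicle array C. The 2 repressed-list rises became 1 without vehicle array A or B or 4OHT array B. Among the induced list, CISH, a feedback inhibitor of cytokine receptors, stood at 8.22, 8.28, 8.31 and 8.30 on 4OHT arrays, against 8.62, 8.73, 8.65 and 8.61 on vehicle arrays, -0.38 ± 0.05 (adjusted p = 5.83e-05), and OLFML3, a secreted glycoprotein, at 8.55, 8.57, 8.37 and 8.54 on 4OHT arrays, against 8.80, 8.89, 8.97 and 8.77 on vehicle arrays, -0.35 ± 0.07 (adjusted p = 0.00187). MYBL1 fell by 0.31 but lost the call without vehicle array C (adjusted p = 0.0605) or 4OHT array B (adjusted p = 0.0603). EGR3, PMAIP1 and HSPB8 were among the 5 rises.

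GREB1, a receptor cofactor and the most used estrogen target of breast cells, was measured by 3 probe sets that disagreed. The probe set with the highest PEO1 mean, which stands for the gene in the counts above, had 5.56, 5.83, 5.92 and 5.86 on 4OHT arrays, against 5.83, 5.69, 5.80 and 5.76 on vehicle arrays and a difference of 0.02 ± 0.07 (adjusted p = 0.914). Another probe set, the one with the highest mean over both lines, had 4.95, 4.78, 5.03 and 4.97 on 4OHT arrays, against 5.81, 5.53, 6.01 and 5.72 on vehicle arrays. Its difference was -0.83 ± 0.09 (adjusted p = 3.73e-06 over all probe sets). That probe set had a mean of 7.74 with E2, 4.997 with ICI and 5.17 at 0 h. The third had means of 3.87 with 4OHT and 3.93 with vehicle and was not called. MYC, a growth regulator raised by estrogen, stood at 12.16, 12.16, 12.004 and 12.05 on 4OHT arrays, against 12.22, 12.20, 12.25 and 12.26 on vehicle arrays, -0.14 ± 0.04 (adjusted p = 0.0314), and lost the call without vehicle array A, C or D or 4OHT array C or D (adjusted p = 0.0609 to 0.12), with quantile normalization (adjusted p = 0.13) and with a common median (adjusted p = 0.124). PGR, the progesterone receptor, had means of 3.28 with 4OHT and 3.37 with vehicle, and CCND1 (cyclin D1) differed by 0.15, neither of them called.

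The receptor's own transcript was slightly lower: ESR1 had 11.16, 11.21, 11.22 and 11.16 on 4OHT arrays, against 11.29, 11.29, 11.35 and 11.34 on vehicle arrays, -0.13 ± 0.04 (adjusted p = 0.0246), on its brightest probe set, with the call lost without vehicle array C or D or 4OHT array D (adjusted p = 0.058 to 0.0913), with quantile normalization (adjusted p = 0.225) or with a common median (adjusted p = 0.147), and 0 of its 8 other probe sets called. Among 21 steroid receptors and coregulators 2 rose and 4 fell. The rises became 1 without any one array other than 4OHT array D, and the falls became 2 without vehicle array C. FOXA1, the pioneer factor of estrogen receptor binding in breast, rose by 0.36 ± 0.08 (adjusted p = 0.00429), and the coactivator NCOA2 fell by 0.29 (adjusted p = 0.00621). IGFBP3, which binds insulin-like growth factors, differed by -0.20 and lost the call without vehicle array C or 4OHT array B or C (adjusted p = 0.0632 to 0.0772), with a common median (adjusted p = 0.0506) and with array weights (adjusted p = 0.0599).

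In the TGF-beta and BMP pathway 6 of 22 genes fell and 1 rose. INHBB, an activin subunit, had 10.72, 10.79, 10.57 and 10.70 on 4OHT arrays, against 11.03, 10.99, 11.11 and 11.04 on vehicle arrays, -0.35 ± 0.04 (adjusted p = 1.22e-05). The BMP-induced inhibitors of helix-loop-helix factors ID3 and ID4 fell by 0.32 and 0.28, the inhibitory SMAD6 by 0.25, and SMAD3, the activin and TGF-beta effector, rose by 0.31 ± 0.04 (adjusted p = 4.89e-05). In the Wnt list 5 of 17 fell and 1 rose, with FZD2 and FZD4 (-0.23) among the falls and DKK1, a secreted Wnt inhibitor, at 11.46, 11.35, 11.37 and 11.43 on 4OHT arrays, against 11.02, 10.98, 11.03 and 10.85 on vehicle arrays, 0.43 ± 0.06 (adjusted p = 1.76e-05), as the rise. The 5 Wnt falls became 2 without vehicle array C or 4OHT array B, 2 with quantile normalization and 3 without vehicle array A or 4OHT array A, C or D. Of the protease list, TFPI2, an inhibitor of coagulation proteases, rose by 0.47 ± 0.06 (adjusted p = 1.68e-05), PLAUR, the urokinase receptor, by 0.31 ± 0.05 (adjusted p = 0.000154), and PLAT, tissue plasminogen activator, fell by 0.27 (adjusted p = 0.00341). GAS1, a growth arrest protein, had 7.44, 7.26, 7.56 and 7.57 on 4OHT arrays, against 7.89, 7.74, 7.89 and 7.75 on vehicle arrays, -0.36 ± 0.07 (adjusted p = 0.00199). SNAI2 (Slug), a repressor of epithelial genes, was the single stromal and mesenchymal marker of 18 to be called, with 8.12, 8.03, 8.001 and 8.13 on 4OHT arrays, against 7.77, 7.73, 7.81 and 7.48 on vehicle arrays, 0.37 ± 0.08 (adjusted p = 0.00299). Of 15 markers in the epithelial list 2 were called lower, 0 higher and 13 not called. The 2 were OVOL2 and GRHL2, an epithelial factor that fell by 0.25 (adjusted p = 0.00139).

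Vehicle for 3 h called 885 genes (7.40%) relative to 0 h, 690 (5.77%) higher and 195 (1.63%) lower. CBLN1, a synaptic organizer, was 7.78, 7.83, 7.89 and 7.71 on 4OHT arrays, against 8.35, 8.27, 8.34 and 8.15 on vehicle arrays, -0.48 ± 0.07 (adjusted p = 6.52e-05), and its mean was 7.26 at 0 h, so its 4OHT level lay between its vehicle and 0 h levels. The calcium channel TRPC6 had means of 5.19 with 4OHT, 5.59 with vehicle and 4.98 at 0 h. VAV3 instead ended below both, at 6.80 with 4OHT, 7.43 with vehicle and 7.69 at 0 h. With ICI alone the log2 difference to the same vehicle arrays was -0.62 for CBLN1, -0.42 for TRPC6, -0.61 for CISH, -0.48 for MYC and -0.03 for VAV3, beside the 4OHT values of -0.48, -0.40, -0.38, -0.14 and -0.63. ICI alone called 15 genes (0.125%) over all, 2 (0.0167%) higher and 13 (0.109%) lower.

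**Figure D4:**
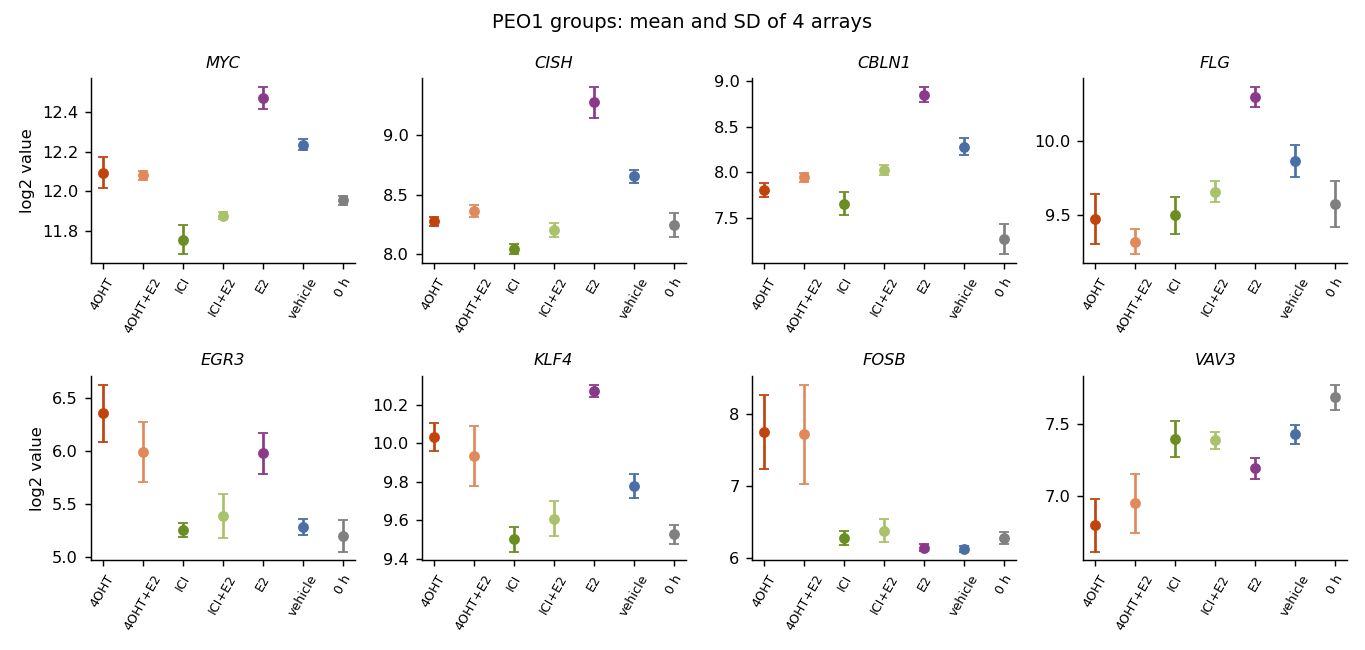
Mean log2 value and SD of 4 arrays in the 7 PEO1 groups for 8 genes, from 4OHT at the left to vehicle and 0 h at the right. MYC, CISH, CBLN1 and FLG are highest with E2 and lower with either antagonist, FOSB is high only in the groups that received 4OHT, and VAV3 is lowest in those same groups.

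4OHT and ICI, both receptor antagonists at 1 µM for 3 h, differed directly in 441 genes (3.69%), 199 (1.66%) higher with 4OHT and 242 (2.02%) lower. Quantile normalization turned the balance, with 229 higher and 164 lower, as did a common median with 221 and 191. These are the 4OHT arrays set against the ICI arrays, so the result shares the 4OHT arrays with the vehicle comparison. The immediate early list was higher with 4OHT than with ICI in 15 of 28 genes and lower in 0. FOSB was 7.75 ± 0.51 with 4OHT and 6.27 ± 0.10 with ICI (SD, n = 4 each; log2 difference 1.48 ± 0.21, limma adjusted p = 8.72e-05), and HSPA6 differed by 1.78 ± 0.18 (limma adjusted p = 8.59e-07). MYC was 0.34 ± 0.04 higher with 4OHT than with ICI (limma adjusted p = 6.36e-06) and CISH 0.23 ± 0.05 (limma adjusted p = 0.0131). VAV3 was lower with 4OHT than with ICI by 0.60 (limma adjusted p = 6.89e-05), and 14 of 35 mitosis genes were lower with 0 higher. For CBLN1, TRPC6 and FLG the 4OHT minus ICI difference was 0.15, 0.03 and -0.02, none of them called. ICI and 4OHT are different chemical classes, a steroid with a long side chain and a triphenylethylene, and were compared at 1 dose and time only. The count of 441 was 220 without ICI array A, 252 without 4OHT array C, 279 without 4OHT array B, 282 without ICI array C and 110 with only the 2 groups in the fit.

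Addition of 4OHT to E2 gave a second set of 8 PEO1 arrays with the same drug, none shared with the comparison above. There 1536 genes (12.8%) were called, 514 (4.30%) higher and 1022 (8.54%) lower relative to E2 alone. Quantile normalization gave 610 higher and 670 lower, and a common median 643 and 770. The count was 970 without E2 array C, 1014 without E2 array B, 995 without array B of 4OHT with E2, and 511 with only those arrays in the fit. Of the 232 genes that rose with 4OHT alone, 207 were above 0 and 150 (64.7%) were called higher in the presence of E2, while 5 were called lower. Of the 589 that fell, 558 were below 0, 311 (52.8%) were called lower and 3 higher. Over all 11963 genes 5410 were above 0 and 6553 below 0 in the presence of E2. Across the 11963 genes the differences without and with E2 correlated at r = 0.617, a description over genes, which are not independent. FOSB was 7.18, 7.32, 7.69 and 8.70 on arrays with 4OHT and E2, against 6.09, 6.22, 6.14 and 6.14 on E2 arrays, a difference of 1.57 ± 0.21 (adjusted p = 9.06e-06), and HSPA6 9.10, 8.53, 8.64 and 9.30 on arrays with 4OHT and E2, against 7.14, 6.97, 6.77 and 6.77 on E2 arrays, 1.98 ± 0.18 (adjusted p = 1.26e-08). The immediate early list had 12 of 28 higher and 2 lower with E2, the NF-kB list 9 of 18 higher, and the mitosis list 23 of 35 lower.

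The difference between the drug's effect with E2 and without it was itself called in 82 genes (0.685%), 22 (0.184%) more positive with E2 and 60 (0.502%) more negative. For EGR3 the 4OHT effect was 1.08 without E2 and 0.01 with E2 (limma adjusted p of the difference = 0.00171). With E2 alone it stood at 5.98, against 5.28 with vehicle, and 4OHT with E2 left it at 5.99. KLF4 changed sign, with 0.26 alone and -0.34 with E2 (limma adjusted p of the difference = 0.000125). EGR1 had 0.95 alone and 0.34 with E2, a difference that was not called (limma adjusted p = 0.511). CA12 (carbonic anhydrase 12), ARHGAP26 and the adhesion protein CADM1 were not called with 4OHT alone (-0.09, 0.02 and -0.01) and fell by 1.07, 1.07 and 0.96 on top of E2, which had raised them by 1.03, 1.08 and 1.002. The E2 effect itself called 256 genes (2.14%), 191 (1.60%) higher and 65 (0.543%) lower. In the estrogen-induced list 12 of 41 genes had a more negative 4OHT effect with E2 and 0 a more positive one.

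**Figure D5:**
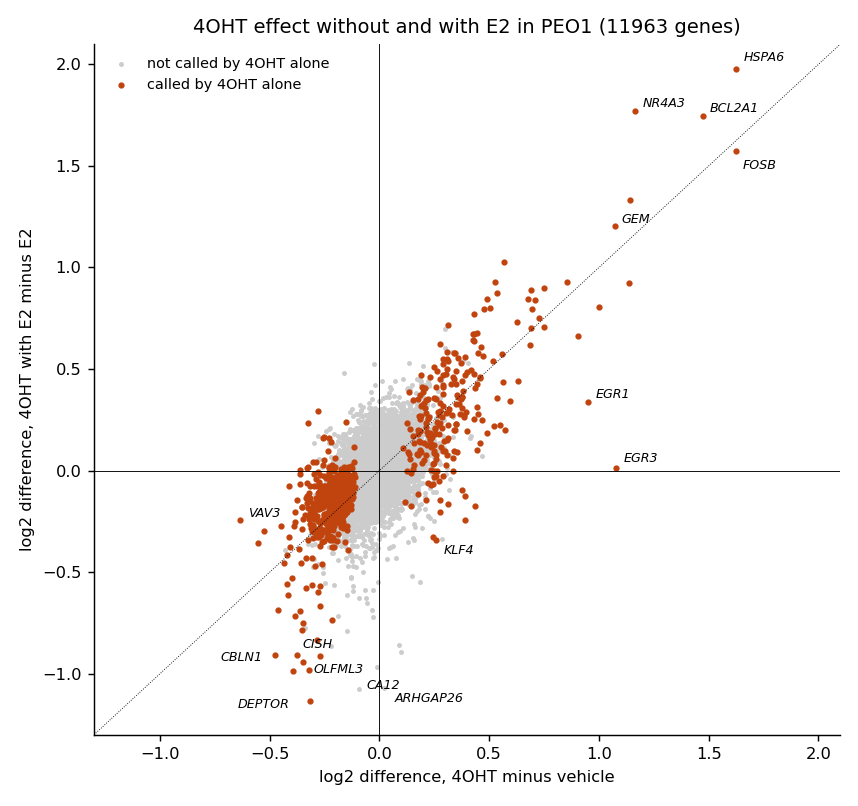
Log2 difference by 4OHT without E2 (x axis) and with E2 (y axis) in PEO1 for 11963 genes, with the genes called by 4OHT alone filled and the dotted line marking equal effects. HSPA6, FOSB, BCL2A1, NR4A3 and GEM lie near that line, EGR3 lies on the x axis, and CA12 and ARHGAP26 lie on the lower y axis.

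In PEO4 the same dose and time called 429 genes (3.59%) higher and 408 (3.41%) lower. Of the 232 genes that rose in PEO1, 198 were above 0 in PEO4, 96 were called higher there and 2 lower. Over all 11963 genes 5875 were above 0 in PEO4. Of the 589 that fell in PEO1, 83 were called lower in PEO4 and 9 higher. FOSB rose by 1.94 in PEO4 beside 1.62 in PEO1, HSPA6 by 1.67 beside 1.63, and HBEGF by 0.71 beside 0.71. The effect differed between lines, tested as PEO4 minus PEO1 in one fit, in 151 genes (1.26%), 116 (0.970%) more positive in PEO4 and 35 (0.293%) more negative. Quantile normalization gave 94 and 66. The count was 77 without PEO1 4OHT array C, 93 without PEO1 vehicle array C, 99 without PEO1 vehicle array B or PEO4 vehicle array 2, and 473 with array weights. The lines look normalized apart, so levels were not set against each other. The ACTB 3 prime minus 5 prime difference was 0.47 to 0.65 on PEO4 4OHT arrays and 0.24 to 0.57 on PEO4 vehicle arrays. The highest values in the same fit were on other PEO4 arrays. They were 3.41 on ICI array 1, 2.28 on 0 h array 4 and 1.74 on array 4 of 4OHT with E2. Whether RNA integrity bears on the PEO4 counts was not tested. GEM and DUSP4 rose more in PEO4, by 1.66 and 1.35 (limma adjusted p of the difference = 0.00363 and 0.000104), and RGCC, a cell cycle regulator, by 1.61 beside 0.53 (limma adjusted p = 9.74e-05). HMOX1 and PDE4B rose in PEO1 and had 0.02 and 0.14 in PEO4 (limma adjusted p = 0.000146 and 0.0065). MYC was -0.14 in PEO1 and 0.53 in PEO4 (limma adjusted p of the difference = 0.00012), and INHBB -0.35 and 0.22 (limma adjusted p = 0.000186). In PEO4 alone the NF-kB list had 3 of 18 rises and the mitosis list 4 of 35 falls, while the test between lines called 0 of 18 and 1 of 35.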

How the data were processed

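The authors deposited log2 values made by RMA, per the submitters' processing notes, for 22277 probe sets on 56 Affymetrix arrays; the version and settings of RMA are not given in the sources used here. From these, 19064 probe sets had 1 gene symbol in the platform annotation, 1043 had several and 2108 had none. For the PEO1 comparisons each of 11963 genes was represented by its brightest probe set, averaged across the 28 PEO1 arrays. For PEO4 and the comparison of lines it was the brightest across all 56 arrays. The 2 choices differ for 278 genes, so for those the PEO1 and PEO4 values come from different probe sets. limma 3.58.1 in R 4.3.3 was fitted to all 28 PEO1 arrays (21 residual degrees of freedom), with a mean per group, or to all 56 for the comparison of lines, and p-values were adjusted by Benjamini-Hochberg over all genes, with a threshold of 0.05. The arrays' number, 4 a group, limits the precision. The smallest 2-sided p of an exact permutation test of 4 against 4 is 0.0286.

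Named genes were the 15 largest called changes in each direction, the 6 list members with the lowest adjusted p at most, the 5 largest in each direction of the other comparisons, and 6 genes fixed by name; the text gives a selection of them. Members and lists were chosen with earlier results of these data known. Alternatives were another variance model, a filter on the 40% dimmest genes, all probe sets, quantile normalization, a common median, a replicate block, array weights, only the groups compared, leaving out each array, and, chosen after seeing the data, the brightest probe set over both lines. The fits were tested on simulated data. RefSeq promoters were matched by gene ID.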

Additional observations from a re-analysis of the deposited data

Results flagged for a closer look

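In 10 of 214 groups of 4 arrays examined among the 107 genes the text names, 1 array stood apart from the other three by Dixon's criterion, given here as its log2 value; chance flags about 1 in 20 groups. On 4OHT arrays these were BAX on array B (8.95), CXCL3 on array B (8.07) and OLFML3 on array C (8.37). On vehicle arrays these were CADM1 on array C (9.82), FOXA1 on array D (6.9), GINS2 on array D (9.36), HBEGF on array D (10), IL6R on array D (4.84), NR4A2 on array D (6.74) and UQCRQ on array C (11.83).

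For 15 of these genes the 4OHT effect differed with and without E2 by the limma interaction, given as the effect with E2 minus the effect without. The differences were ARHGAP26 (-1.09), CA12 (-0.98), CADM1 (-0.95), CBLN1 (-0.43), CISH (-0.53), EGR3 (-1.06), FLG (-0.59), INHBB (-0.4), KLF4 (-0.6), MYC (-0.25), OLFML3 (-0.59), PLAT (-0.64) and PMAIP1 (-0.31) below 0, and NR3C2 (0.34) and SMAD6 (0.31) above 0. For 18 the effect differed between lines, given as PEO4 minus PEO1. The differences were CBLN1 (0.43), CISH (0.39), DLGAP5 (0.25), DUSP4 (0.82), GASK1B (0.49), GEM (0.59), GREB1 (0.75), ID3 (0.41), ID4 (0.39), IGFBP3 (0.46), INHBB (0.57), MYBL1 (0.65), MYC (0.67), PLAT (0.44) and RGCC (1.09) above 0, and DNAJB9 (-0.32), HMOX1 (-0.67) and PDE4B (-0.48) below 0. The GREB1 value comes from its probe set with the highest mean over both lines.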

How the results depend on the processing

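The count of 821 called genes for 4OHT minus vehicle ranged from 380 to 908 when single arrays were left out. It was 256 with only the groups compared in the fit, where the spread is estimated from those groups alone. Why that count was lower was not tested. For 4OHT with E2 minus E2 the count of 1536 ranged from 970 to 2097 without single arrays and was 511 with only the groups compared. For 4OHT minus ICI the count of 441 ranged from 220 to 601 and was 110 with only the groups compared. For the difference of the 4OHT effect with and without E2 the count of 82 ranged from 64 to 85 and was 53 with only the groups compared. For the difference between lines the count of 151 ranged from 77 to 198 and was 473 with array weights; the cause was not tested. The replicate letters were not used as pairs, since the deviations of same-lettered 4OHT and vehicle arrays correlated at -0.08, 0.29, 0.16 and 0.12, not over 0.1 in every pair. Arrays of different letters correlated at -0.30 to 0.13, and 2 of 4 4OHT arrays correlated best with the vehicle array of their own letter. The fit with a replicate block called 769 genes, 227 higher and 542 lower. GREB1 turned to a difference of -0.83 with the probe set highest over both lines, because that choice takes another probe set. Among the 107 genes the text names, 99 were called, of which 99 kept the call with a trended variance, 95 with quantile normalization, 94 with a common median, 98 with the block, 72 with only the groups compared, and 88 whichever array was left out. With only the groups compared, the falls in the mitosis list were 6 in place of 19, in the G1/S list 2 in place of 10, and the rises in the unfolded protein list 0 in place of 4. With dim genes left out, the rises were 9 in place of 14 for immediate early genes, 4 in place of 9 for cAMP responsive genes and 4 in place of 7 for chemokines. That setting takes dim members out of the test. Of the genes the text names, 85 were still tested, and all 79 called ones among them kept the call. Over all genes 1016 were then called. The 8 falls in the respiratory chain list were 1 with quantile normalization, 4 with a common median, 20 with dim genes left out and 21 with a trended variance.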
